A study of Mus musculus with 43 samples.

Results

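CD4 T cells that had met antigen for 3 days and were then left without it until day 30, the briefly primed memory cells labelled d30 none, were compared with naive cells of the same transgenic donor line across all measured genes. The comparison rests on 10 of the 43 arrays in the series, 5 of d30 none cells and 5 of naive cells. Each of 22180 gene symbols is represented by the brightest of its probe sets, judged over all 43 arrays and among probe sets that carry a single symbol, so that the choice of probe sets did not use the difference between the groups.

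All donor cells were AND T cell receptor transgenic, Rag2-deficient, CD45.1+ CD4 T cells, which see a peptide of moth cytochrome c (MCC). The d30 none cells had been transferred into iMCC recipients, whose 2 transgenes let dendritic cells make an invariant chain that holds the MCC peptide in the place of CLIP while doxycycline is given. These recipients had received an antibody to CD40 1 day before transfer, to activate dendritic cells, and 100 µg/ml doxycycline in the drinking water up to day 3. The drug was then withdrawn, and cells were sorted 30 days after transfer. Naive cells had been transferred into non-transgenic recipients without doxycycline and were sorted 3 days later. A further group, d10 none, had the same doxycycline schedule as d30 none and was sorted on day 10. The other arrays are of cells kept on 10 µg/ml (low) or 100 µg/ml (int) after day 3, of cells taken off the drug on day 10 (off), and of cells in cMCC recipients, whose MHC class II positive cells express the epitope at all times (high). The labels state that cells of repeated sorts on day 10 were mixed. Whether each array stands for its own animal is not stated, and p-values therefore cover only the spread among these samples, part of which may be technical. The 2 groups differ in priming, in time after transfer, in recipient genotype and in doxycycline, and these cannot be told apart. The day 30 sorts were a second series, and in which series the naive cells were sorted is not stated. Treatment of the naive cells' recipients with the CD40 antibody is not mentioned.

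Naive CD4 T cells recirculate through lymph nodes and need weak receptor contacts and IL-7 to live. After priming, most effector cells die and a few persist as memory cells, which keep chemokine receptors, integrins and cytokine genes ready for use. Th1 memory cells are defined by the transcription factor T-bet, the receptor CXCR3 and the capacity to make interferon gamma.

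Cells of both groups had been sorted as CD4+CD90.2+CD45.1+, and Cd4, Thy1 (CD90) and Ptprc (CD45) were not called between them, with adjusted p of 0.868, 0.812 and 1.0. Cd4 stood at 9.21 ± 0.27 in d30 none cells, against 9.28 ± 0.13 in naive cells (log2 signal, SD, n = 5 each), and Rag2, absent from the donors, was at 3.04 ± 0.29 in d30 none cells, against 2.77 ± 0.27 in naive cells. Correlations between arrays over all genes were 0.953 to 0.965 within d30 none and 0.963 to 0.976 within naive. The naive arrays 3 and 4 stood apart in carrying the most transcripts of other blood cells, and naive array 5 carried some as well. The summed signal of 29 myeloid and dendritic markers was between 8.0 and 8.44 (log2) in the d30 none arrays, against 8.76, 8.37, 12.06, 11.34 and 9.53 in naive arrays 1 to 5. For 14 B cell markers it was 7.04 to 7.34 in d30 none arrays, against 7.23, 7.09, 9.72, 8.39 and 7.46 in naive arrays. Results are therefore also given without naive arrays 3 and 4 where this ended the call of a named gene or moved its fold by over 1.5 times. Such fits keep naive array 5 and are not free of transcripts of other blood cells.

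**Figure D1:**
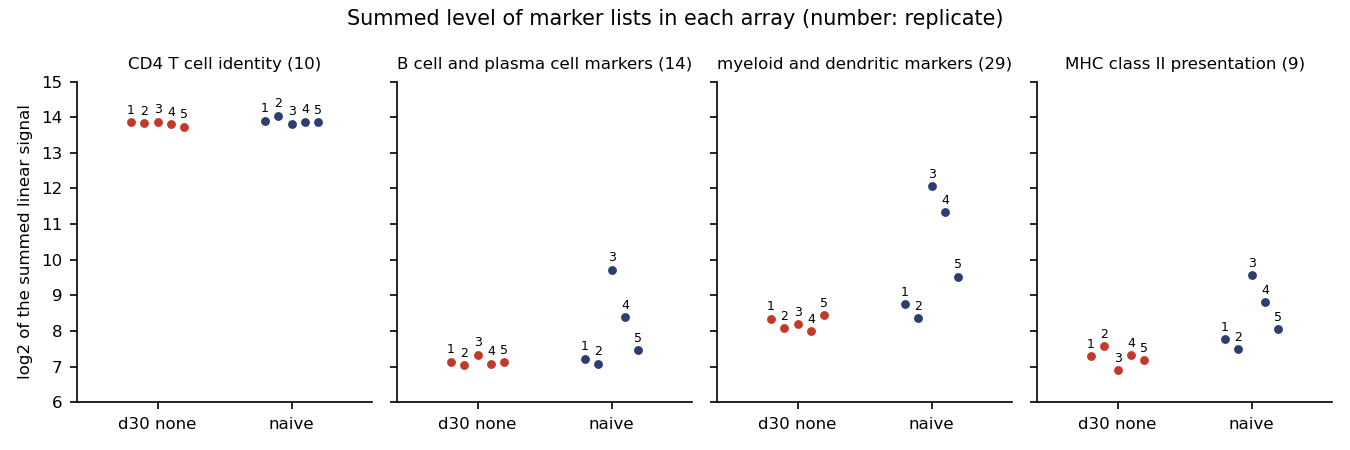
Summed signal of 4 marker lists in each array, as the log2 of the sum of linear signals, for d30 none (left, red) and naive (right, blue). CD4 T cell genes lie between 13.73 and 14.04 in every array, while B cell, myeloid and MHC class II genes are raised in naive arrays 3 and 4.

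In limma's model of all 9 groups, 961 of 22180 genes, or 4.33%, differed between d30 none and naive cells at an adjusted p under 0.05, and such genes are called here. In d30 none cells 439 genes were higher (1.98% of those tested) and 522 lower (2.35%). A difference of at least 2-fold was found for 320 called genes (1.44%), of which 110 were higher and 210 lower. At least 8-fold were 7 higher and 11 lower genes. The 5 arrays of one group lay wholly beyond the 5 of the other for 875 genes (3.94% of all tested), and 559 of these were called. The median log2 fold change of all genes was 0.02. Of the 961 calls, 462 held when each of the 10 arrays was left out in turn. Without naive arrays 3 and 4, 594 genes were called, 496 of them shared with the 961, and 0 of the 961 turned direction. Values below are log2 signals per array or log2 fold changes (d30 none minus naive) ± SE. The SE and p-values come from a spread estimated over all 9 groups. They can be too small for genes that vary widely among naive arrays, such as S100a6 (SD 2.16 in naive, 0.42 in d30 none cells). Called genes of which the fold change alone is given had non-overlapping arrays unless stated.

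**Figure D2:**
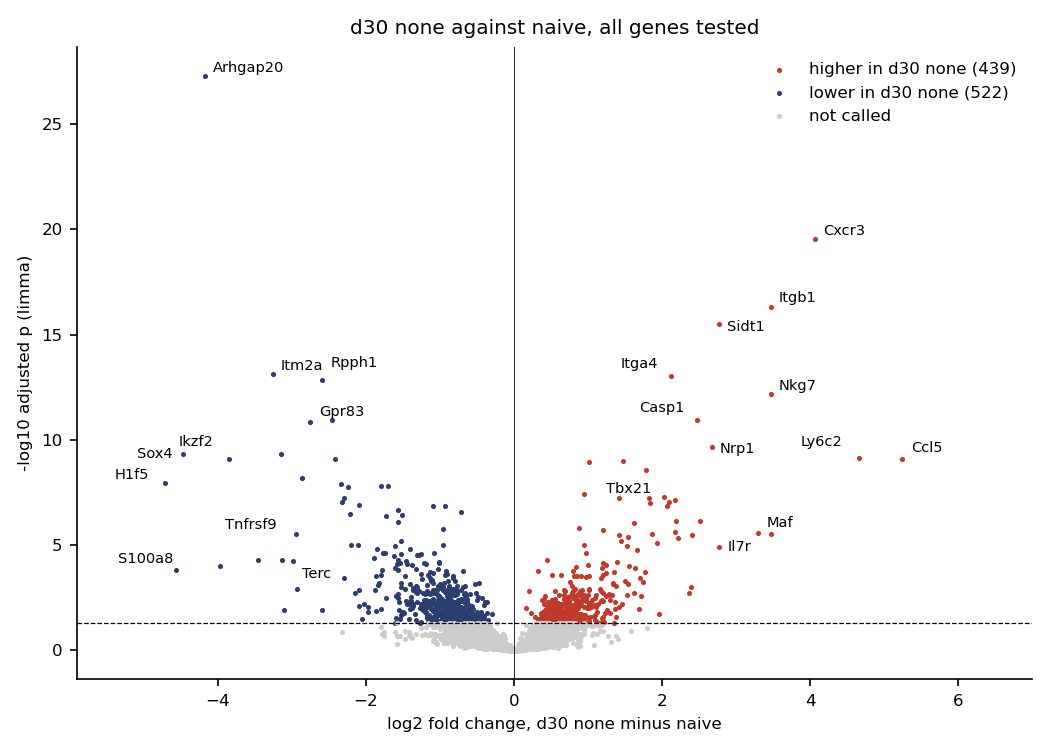
Log2 fold change of each gene (x axis, d30 none minus naive) against the minus log10 of limma's adjusted p (y axis). The dashed line marks an adjusted p of 0.05, and red and blue points are the 439 higher and 522 lower genes.

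Genes of the Th1 program were higher in d30 none cells. Of 26 measured members of the Th1 list, 11 were higher, 2 were lower and 13 were not called, with a median log2 fold change of 0.49. Among all genes 4.33% were called and the median was 0.02. Cxcr3, the chemokine receptor by which Th1 cells enter inflamed tissue, stood at 9.06, 9.61, 8.72, 9.14 and 9.0 in d30 none arrays, against 4.65, 5.17, 5.70, 5.20 and 4.44 in naive arrays. The groups were far apart, with the lowest d30 none array 3.02 above the highest naive one. Ccl5, a chemokine of effector and memory cells, was at 11.31, 11.09, 11.15, 11.52 and 10.87 in d30 none arrays, against 3.81, 4.05, 9.18, 6.27 and 6.39 in naive arrays (5.25 ± 0.52, adjusted p = 7.77e-10). Naive array 3, which had the highest myeloid and B cell signal, was also the highest naive array for it, and the difference without naive arrays 3 and 4 was larger (6.44, adjusted p = 9.02e-15). Nkg7, a protein of cytotoxic granules, was at 9.95, 9.70, 9.84, 10.30 and 9.94 in d30 none arrays, against 6.28, 4.39, 7.10, 7.34 and 7.25 in naive arrays (3.47 ± 0.27, adjusted p = 6.92e-13). Its naive values spread widely while the d30 none values lay close together. Both chains of the receptor for IL-18, a cytokine that makes Th1 cells release interferon gamma without antigen, were higher. Il18r1 was at 7.0, 7.55, 6.60, 6.27 and 6.55 in d30 none arrays, against 4.89, 4.82, 3.68, 4.07 and 4.49 in naive arrays (2.40 ± 0.34, adjusted p = 3.41e-06). Il18rap was at 5.41, 4.23, 4.89, 4.91 and 4.72 in d30 none arrays, against 3.0, 2.86, 3.47, 3.29 and 3.04 in naive arrays (1.70 ± 0.31, adjusted p = 0.000372). No array of either chain crossed into the other group. Tbx21, which encodes T-bet, was at 6.43 ± 0.68 in d30 none cells, against 4.40 ± 0.37 in naive cells (2.03 ± 0.24, adjusted p = 5.1e-08). Ifng was at 4.99 ± 0.42 in d30 none cells, against 3.36 ± 0.45 in naive cells (1.62 ± 0.34, adjusted p = 0.00191). In the primed groups the mean of Ifng ran from 4.49 in d10 low to 6.98 in d10 high cells.

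Signal transduction genes of the program moved as well. Stat4, which carries the IL-12 signal and is named after its values were seen, was higher in d30 none cells by 0.95 ± 0.14, adjusted p = 1.03e-05. The interferon gamma receptor went in opposite directions for its chains. Ifngr1, the chain that binds the cytokine, was at 8.05, 8.03, 7.67, 7.42 and 7.69 in d30 none arrays, against 6.69, 6.12, 6.45, 6.73 and 6.58 in naive arrays (1.26 ± 0.32, adjusted p = 0.0117). Ifngr2, the chain needed for signalling, was at 4.39, 3.85, 4.12, 5.54 and 4.03 in d30 none arrays, against 7.30, 7.08, 6.57, 6.46 and 6.20 in naive arrays (-2.34 ± 0.26, adjusted p = 1.24e-08). For Ifngr2 the naive arrays were above every one of the 38 arrays of primed cells, not those of d30 none alone. Of Th1 list members that were lower, Lta, the cytokine lymphotoxin alpha, was at 5.43 ± 0.12 in d30 none cells, against 6.59 ± 0.25 in naive cells (-1.17 ± 0.24, adjusted p = 0.00148). Eomes, a T-box factor related to T-bet, was at 3.33, 3.50, 3.41, 2.92 and 3.36 in d30 none arrays, against 3.89, 4.33, 5.30, 5.75 and 6.58 in naive arrays (-1.87 ± 0.48, adjusted p = 0.0138), and the call was lost without naive array 5 (adjusted p = 0.072) and without naive arrays 3 and 4 (-1.63, adjusted p = 0.113).

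Cytotoxic granule genes had 4 of 21 members higher and 1 lower, or 23.8% called, beside 4.33% of all genes. Besides Nkg7, these were Ctsw, the protease cathepsin W (1.62 ± 0.21, adjusted p = 9.18e-07), Cst7, which encodes cystatin F, an inhibitor of granule proteases (1.54 ± 0.22, adjusted p = 4.06e-06), and Gzmm, granzyme M (0.71, adjusted p = 0.0282), whose arrays overlapped. Cst7 was at 8.75, 8.46, 8.14, 8.80 and 7.76 in d30 none arrays, against 5.95, 6.92, 7.15, 7.74 and 6.45 in naive arrays, so that every naive array was below every d30 none array by a narrow margin. Of 12 killer cell receptors only Klrd1 (CD94) was called (1.35 ± 0.41, adjusted p = 0.0487, overlapping arrays), and this passed in 2 of the 10 fits that leave out an array. The call of Gzmm passed in 4 of them. Without naive arrays 3 and 4 both calls were lost, Gzmm at 0.73, adjusted p = 0.0803 and Klrd1 at 1.59, adjusted p = 0.0615.

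**Figure D3:**
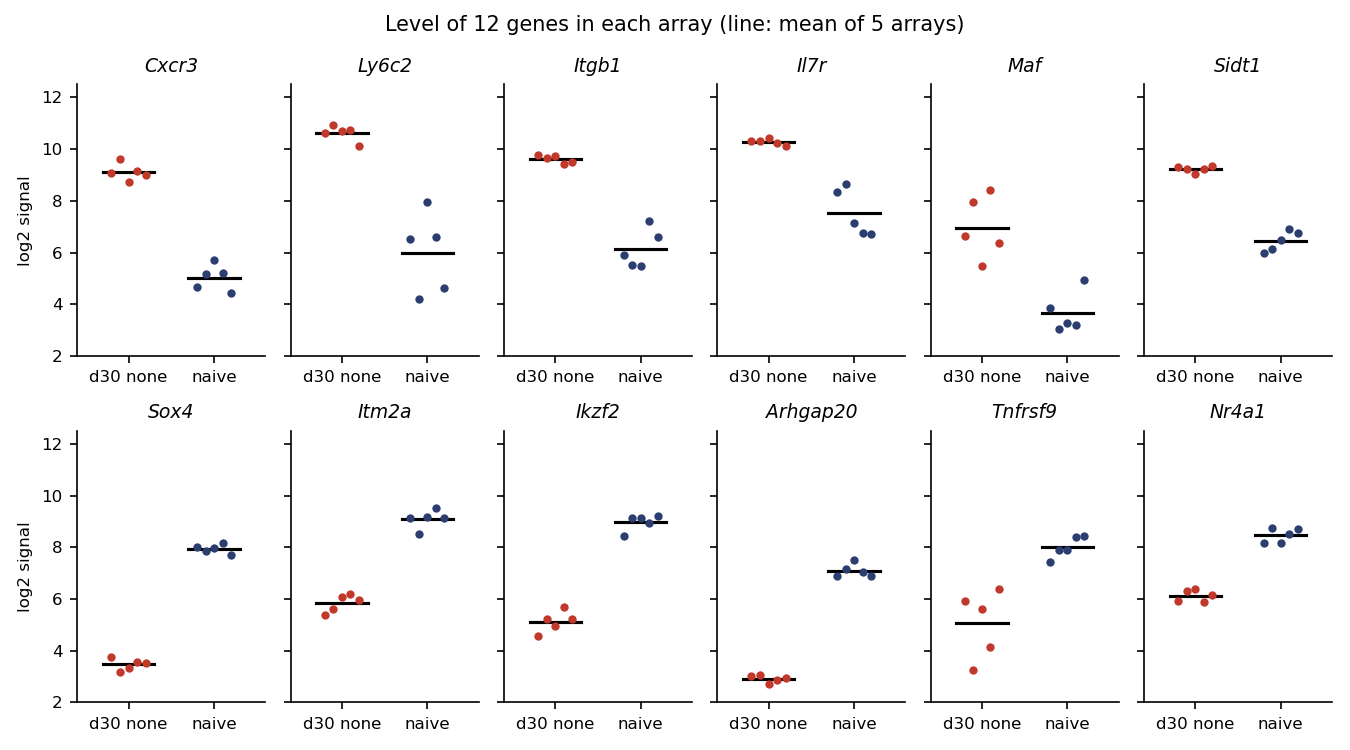
Log2 signal of 12 genes in each of the 5 d30 none arrays (left, red) and 5 naive arrays (right, blue), with the mean as a line. The upper 6 genes are higher and the lower 6 are lower in d30 none cells, with no overlap between the groups in any panel.

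The S100, annexin, galectin and Ly6 list, genes known to mark effector and memory lymphocytes, had 10 of 22 members higher and 0 lower by limma, with a median of 0.63 and 2 lower at an unadjusted p under 0.05. The called share was 45.5%, beside 4.33% of all genes. Without naive arrays 3 and 4 the higher members were 11. Ly6c2, the surface protein Ly6C of Th1 effector and memory cells, was at 10.63, 10.95, 10.71, 10.75 and 10.14 in d30 none arrays, against 6.52, 4.22, 7.95, 6.59 and 4.62 in naive arrays (4.66 ± 0.46, adjusted p = 7.36e-10, and 5.52, adjusted p = 7.39e-12 without naive arrays 3 and 4). Naive cells spread over several log2 units for this gene, yet all stayed below. S100a6, a calcium-binding protein, was at 9.53, 9.07, 8.92, 8.62 and 9.61 in d30 none arrays, against 4.15, 3.96, 8.74, 7.17 and 4.32 in naive arrays (3.48 ± 0.48, adjusted p = 2.86e-06). Its naive array 3 overlapped the d30 none range, the same array that had the highest myeloid signal, and without naive arrays 3 and 4 the difference was larger (5.01, adjusted p = 1.32e-16). Anxa2 (annexin A2) was at 6.0 ± 0.27 in d30 none cells, against 4.37 ± 0.82 in naive cells (1.63 ± 0.28, adjusted p = 0.000119). Ahnak, a large scaffold protein under the membrane, Tagln2, an actin-binding protein, and S100a11 were higher too, by 2.07, 1.48 and 0.88.

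Integrins and selectin ligand enzymes moved in both directions, with 4 of 31 members higher and 2 lower (19.4% called, beside 4.33% of all genes). Itgb1, the integrin beta 1 chain, was at 9.77, 9.65, 9.72, 9.44 and 9.50 in d30 none arrays, against 5.92, 5.50, 5.48, 7.23 and 6.60 in naive arrays (3.47 ± 0.20, adjusted p = 4.66e-17). Itga4, the alpha 4 chain that pairs with it as VLA-4, was at 9.47, 9.20, 9.38, 9.33 and 9.02 in d30 none arrays, against 7.16, 6.88, 7.47, 7.08 and 7.19 in naive arrays (2.12 ± 0.15, adjusted p = 9.45e-14). Both genes of this heterodimer thus lay in a narrow band in d30 none cells, well above naive cells. Itgb7, the other partner of alpha 4 and a gut homing chain, was higher by 0.85 ± 0.15, adjusted p = 0.0003, and St3gal6, a sialyltransferase of selectin ligands, by 0.84 ± 0.19, adjusted p = 0.00451. Lower were Itgal, the alpha chain of LFA-1, at 8.31, 8.31, 8.39, 8.41 and 8.23 in d30 none arrays, against 8.74, 9.24, 8.86, 8.91 and 9.06 in naive arrays (-0.63 ± 0.14, adjusted p = 0.00379), and the adhesion receptor Cd2 (-0.72 ± 0.09, adjusted p = 2.69e-07). Cd44, the usual protein marker of antigen-experienced cells, did not pass on its probe set, with 4.83, 5.29, 5.02, 4.96 and 4.88 in d30 none arrays, against 4.29, 4.95, 4.83, 4.77 and 4.85 in naive arrays (0.26 ± 0.18, adjusted p = 0.511).

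Of 25 chemokine and exit receptors, 2 were higher and 3 lower, or 20% called, beside 4.33% of all genes. Ccr8, a receptor found on skin-homing and regulatory T cells, was at 3.69, 2.62, 3.49, 2.33 and 3.59 in d30 none arrays, against 5.30, 5.99, 4.33, 5.69 and 5.52 in naive arrays (-2.22 ± 0.28, adjusted p = 3.48e-07). Cxcr4, the receptor for CXCL12, was at 5.94, 5.54, 6.30, 5.37 and 6.07 in d30 none arrays, against 6.20, 6.30, 7.06, 7.97 and 7.81 in naive arrays (-1.22 ± 0.27, adjusted p = 0.0042), with 1 d30 none value above the lowest naive one, and it did not pass without naive arrays 3 and 4 (-0.93, adjusted p = 0.0897). Ccr7, which brings cells into lymph nodes, was at 8.58 ± 0.44 in d30 none cells, against 9.53 ± 0.26 in naive cells (-0.95 ± 0.26, adjusted p = 0.027), a call that held in only 4 of 10 fits without an array and was lost without naive arrays 3 and 4 (-1.02, adjusted p = 0.0623). Besides Cxcr3, S1pr4, a sphingosine phosphate receptor, was higher (0.69, adjusted p = 0.0315), a call that held in 5 of those fits and was likewise lost (0.59, adjusted p = 0.15).

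Cytokine receptors had 6 of 31 members higher and 5 lower (35.5% called, beside 4.33% of all genes). Il7r, the IL-7 receptor chain through which memory cells survive, was at 10.31, 10.32, 10.44, 10.23 and 10.13 in d30 none arrays, against 8.34, 8.65, 7.13, 6.75 and 6.72 in naive arrays. Its naive values fell into 2 higher and 3 lower arrays, all below d30 none. Il2rb, shared by the IL-2 and IL-15 receptors, was at 8.81, 8.77, 8.34, 9.06 and 8.59 in d30 none arrays, against 7.43, 7.96, 8.04, 8.14 and 7.96 in naive arrays (0.81 ± 0.15, adjusted p = 0.00029). Among the lower genes, Il6st, the gp130 chain of IL-6 family receptors, named after its values were seen, fell by 0.96 on the log2 scale (adjusted p = 1.72e-06), and Tgfbr3, a TGF-beta co-receptor, was at 5.06 ± 0.35 in d30 none cells, against 6.24 ± 0.60 in naive cells (-1.18 ± 0.24, adjusted p = 0.00189). Il2 itself was not called, at 3.27, 3.53, 6.45, 3.40 and 4.27 in d30 none arrays, against 2.98, 2.63, 2.78, 3.95 and 3.29 in naive arrays (1.06 ± 0.44, adjusted p = 0.189), with a single d30 none array standing out.

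Of 27 TNF family members 3 were lower and 1 higher, and at an unadjusted p under 0.05 there were 3 in each direction. Of 25 inhibitory and costimulatory receptors 3 were lower and 1 higher, and at an unadjusted p under 0.05 there were 8 lower and 3 higher. The called shares of the 2 lists were 14.8% and 16%, beside 4.33% of all genes. Tnfrsf9, the activation-induced receptor 4-1BB, was at 5.91, 3.27, 5.60, 4.13 and 6.40 in d30 none arrays, against 7.45, 7.89, 7.88, 8.40 and 8.45 in naive arrays (-2.95 ± 0.41, adjusted p = 2.86e-06). Tnfsf4, the OX40 ligand, was at 2.79, 3.13, 2.95, 2.44 and 3.56 in d30 none arrays, against 5.34, 4.88, 6.77, 8.27 and 5.28 in naive arrays (-3.13 ± 0.51, adjusted p = 4.89e-05, and -2.19, adjusted p = 0.00881 without naive arrays 3 and 4). For this gene d30 none arrays were near the bottom of the scale and naive arrays ranged over more than 3 log2 units. Tnfrsf26, a decoy-like receptor of the family, was the higher one (0.90 ± 0.19, adjusted p = 0.0021). Pdcd1, which encodes PD-1, was lower (-1.56 ± 0.33, adjusted p = 0.00212) with overlapping arrays and lost its call without naive arrays 3 and 4 (-1.05, adjusted p = 0.104). Cd200, an inhibitory ligand, was at 6.90 ± 0.59 in d30 none cells, against 8.26 ± 0.49 in naive cells (-1.36 ± 0.27, adjusted p = 0.00113, overlapping arrays). Nt5e, the ectoenzyme CD73 that makes adenosine, was the higher coreceptor, at 6.07, 5.50, 5.38, 6.48 and 4.85 in d30 none arrays, against 4.18, 3.71, 4.25, 4.42 and 4.04 in naive arrays (1.54 ± 0.29, adjusted p = 0.000717). Lag3, a marker of cells under persistent antigen, was not called, at 4.95 ± 0.71 in d30 none cells, against 5.16 ± 0.40 in naive cells (adjusted p = 0.853).

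Among 29 effector and memory transcription factors 6 were higher and 5 lower, or 37.9% called, beside 4.33% of all genes. Maf, a regulator of IL-10, IL-4 and IL-21, was at 6.62, 7.94, 5.49, 8.42 and 6.36 in d30 none arrays, against 3.85, 3.03, 3.29, 3.19 and 4.95 in naive arrays (3.30 ± 0.46, adjusted p = 2.69e-06). The d30 none arrays differed among themselves by almost 3 log2 units for Maf, more than for most genes shown here, and still did not meet the naive range. Lower were Bcl6, the regulator of follicular helper cells, at 6.45, 6.54, 6.17, 5.49 and 6.33 in d30 none arrays, against 7.27, 8.37, 7.82, 7.61 and 7.74 in naive arrays (-1.57 ± 0.27, adjusted p = 0.000161), and Myb, which keeps stem-like memory cells, at 7.37, 7.13, 7.54, 6.11 and 7.53 in d30 none arrays, against 7.83, 8.73, 8.61, 9.33 and 9.24 in naive arrays (-1.61 ± 0.24, adjusted p = 1.08e-05). Pou2af1, the octamer coactivator OCA-B, was at 5.05 ± 0.33 in d30 none cells, against 6.90 ± 1.19 in naive cells (-1.86 ± 0.34, adjusted p = 0.000304), with naive array 1 inside the d30 none range. Tox fell by 1.22 on the log2 scale. Of 19 follicular helper genes 4 were lower (Pou2af1, Bcl6, Pdcd1 and Cd200) and 1 was higher (Maf), 26.3% in all, beside 4.33% of all genes. Without naive arrays 3 and 4 this list had 3 lower and 3 higher members. Of 17 Th2 and Th17 genes only Ccr8 was called. Id3 was not called (-0.48, adjusted p = 0.299).

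Regulatory T cell genes were lower in d30 none cells in 8 of 21 cases and higher in 2 (47.6% called, beside 4.33% of all genes). Ikzf2, which encodes Helios, was at 4.56, 5.21, 4.96, 5.69 and 5.22 in d30 none arrays, against 8.45, 9.12, 9.14, 8.96 and 9.23 in naive arrays (-3.85 ± 0.38, adjusted p = 7.77e-10). Gpr83, a peptide receptor found on regulatory T cells, was at 3.40, 3.31, 3.10, 3.60 and 3.20 in d30 none arrays, against 6.34, 6.67, 6.25, 5.59 and 5.51 in naive arrays (-2.75 ± 0.24, adjusted p = 1.45e-11). Both were well expressed in the naive transgenic cells, and Gpr83 was near the bottom of the scale in all d30 none arrays. Foxp3, the lineage factor, was at 3.51, 3.40, 4.01, 3.71 and 4.06 in d30 none arrays, against 5.09, 5.22, 6.42, 5.15 and 4.92 in naive arrays (-1.62 ± 0.26, adjusted p = 3.4e-05), and Ikzf4, encoding Eos, was at 4.33 ± 0.35 in d30 none cells, against 5.86 ± 0.66 in naive cells (-1.53 ± 0.24, adjusted p = 2.64e-05). The 2 higher members were Maf and Nrp1, a semaphorin co-receptor, at 6.36, 6.05, 6.22, 6.42 and 6.36 in d30 none arrays, against 3.95, 3.47, 3.53, 4.10 and 3.03 in naive arrays (2.67 ± 0.25, adjusted p = 2.16e-10). Whether a small number of cells or all cells carry such transcripts cannot be told in bulk RNA, where fewer cells of a type and less RNA per cell cannot be told apart.

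Genes of naive and resting cells gave the counterpart: 16 of 38 were lower, 2 higher and 20 not called, with a median of -0.38. The called share was 47.4%, beside 4.33% of all genes. Sox4, a transcription factor of immature lymphocytes, was at 3.76, 3.18, 3.35, 3.58 and 3.53 in d30 none arrays, against 8.02, 7.87, 7.97, 8.18 and 7.71 in naive arrays (-4.47 ± 0.43, adjusted p = 4.5e-10). Itm2a, a membrane protein of thymocytes and naive T cells, was at 5.37, 5.60, 6.06, 6.21 and 5.98 in d30 none arrays, against 9.14, 8.53, 9.19, 9.52 and 9.15 in naive arrays (-3.26 ± 0.23, adjusted p = 7.81e-14). Igfbp4, an IGF-binding protein typical of naive CD4 cells, was at 4.28, 4.46, 4.40, 3.69 and 3.93 in d30 none arrays, against 6.52, 6.94, 7.46, 6.29 and 5.85 in naive arrays (-2.46 ± 0.21, adjusted p = 1.15e-11). All 3 left a gap of more than 1 log2 unit between the groups. Ramp1, a subunit of the receptor for the neuropeptide CGRP, Amigo2, an adhesion protein, and Bach2, a repressor of effector genes, were lower, with log2 fold changes of -1.57 ± 0.19, adjusted p = 2.06e-07, -1.31 ± 0.21, adjusted p = 2.96e-05 and -1.10 ± 0.21, adjusted p = 0.000661. Against this direction went Klf2, which drives exit from lymph nodes and keeps T cells quiescent, at 6.77, 6.94, 6.87, 7.12 and 7.02 in d30 none arrays, against 5.97, 5.87, 5.73, 5.44 and 5.70 in naive arrays (1.20 ± 0.20, adjusted p = 7.05e-05). Of the 16 lower members, 8 kept their calls in all 10 fits that leave out an array, and 14 members were lower without naive arrays 3 and 4.

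Outside the lists, Arhgap20, a GTPase-activating protein, had the smallest adjusted p of all the genes named here, at 3.01, 3.05, 2.73, 2.87 and 2.94 in d30 none arrays, against 6.88, 7.18, 7.51, 7.03 and 6.89 in naive arrays (-4.18 ± 0.12, adjusted p = 5.09e-28). In d30 none arrays it was at the bottom of the scale. Tmem108, a transmembrane protein, was at 3.08, 3.0, 4.35, 2.67 and 4.01 in d30 none arrays, against 6.72, 6.89, 6.73, 6.10 and 6.44 in naive arrays (-3.15 ± 0.30, adjusted p = 4.74e-10), and Trat1, an adaptor that sits with the T cell receptor, at 4.65, 4.18, 4.88, 4.06 and 4.46 in d30 none arrays, against 6.93, 6.79, 6.98, 6.52 and 7.12 in naive arrays (-2.42 ± 0.24, adjusted p = 7.77e-10). The tetraspanin gene Cd81, a costimulatory protein, and Cnn3, an actin-binding calponin, were lower, with log2 fold changes of -2.86 ± 0.31, adjusted p = 6.74e-09 and -2.30 ± 0.27, adjusted p = 5.71e-08. Cd24a, the heat-stable antigen of B cells and immature T cells, had 3.23, 3.12, 3.16, 3.32 and 3.68 in d30 none arrays, against 4.87, 4.69, 8.17, 7.86 and 5.56 in naive arrays, and its difference lost the call without naive arrays 3 and 4 (-1.74, adjusted p = 0.101). On the higher side were Sidt1, a transmembrane protein linked to RNA uptake, at 9.29, 9.22, 9.03, 9.25 and 9.33 in d30 none arrays, against 6.0, 6.14, 6.49, 6.92 and 6.74 in naive arrays (2.77 ± 0.17, adjusted p = 3.26e-16), and the myosin gene Myo1f at 5.35, 6.07, 5.88, 5.79 and 5.42 in d30 none arrays, against 3.01, 2.98, 3.53, 3.29 and 3.15 in naive arrays (2.51 ± 0.33, adjusted p = 7.16e-07). Pde2a, a cyclic nucleotide phosphodiesterase, Dnajc15, a co-chaperone of mitochondria, and Pglyrp1, a peptidoglycan recognition protein, were higher by 2.19 ± 0.29, adjusted p = 7.03e-07, 2.17 ± 0.26, adjusted p = 6.9e-08 and 2.10 ± 0.25, adjusted p = 9.26e-08. For Pglyrp1 the difference without naive arrays 3 and 4 was larger (2.76, adjusted p = 2.41e-13).

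**Figure D4:**
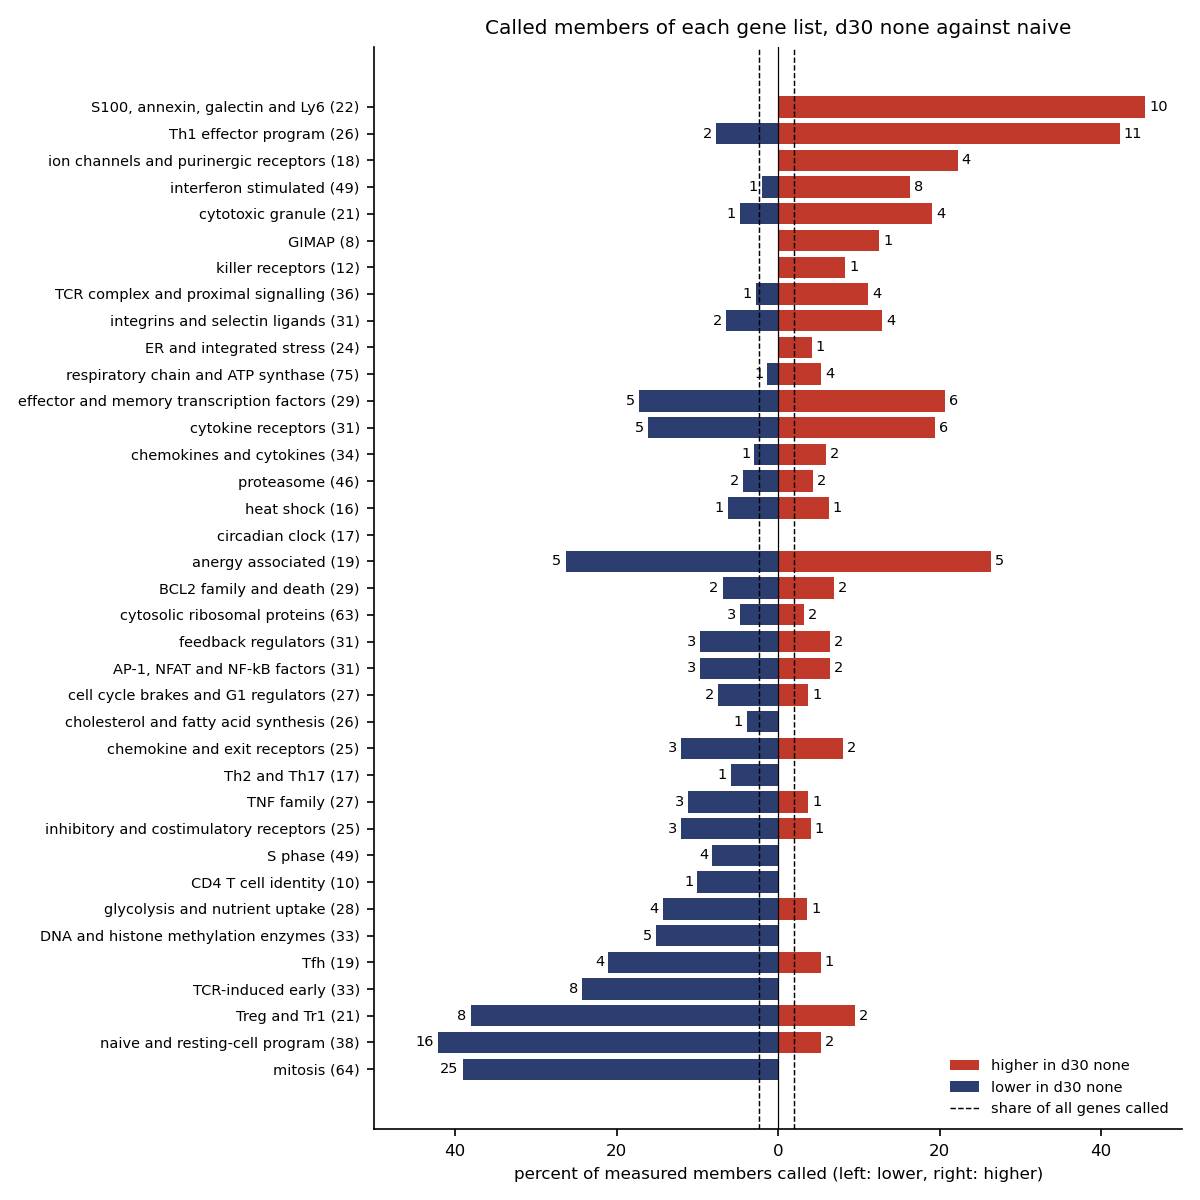
Share of the measured members of each gene list (number measured in parentheses) that were higher (right, red) or lower (left, blue) in d30 none than in naive cells, with the number of genes at each bar. Dashed lines mark the shares of all genes tested, dim ones included, 1.98% higher and 2.35% lower.

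Early genes of T cell receptor signalling were lower in 8 of 33 cases and higher in 0 by limma, also at an unadjusted p under 0.05, with a median of -0.43. The called share was 24.2%, beside 4.33% of all genes. Nr4a3, an orphan nuclear receptor induced by receptor signals, was at 6.0, 5.55, 5.92, 5.55 and 5.88 in d30 none arrays, against 6.71, 8.08, 7.49, 7.75 and 7.59 in naive arrays (-1.74 ± 0.27, adjusted p = 2.5e-05). Its relative Nr4a1 was at 6.13 ± 0.23 in d30 none cells, against 8.46 ± 0.29 in naive cells (-2.33 ± 0.28, adjusted p = 9.26e-08), with no overlap of arrays. Egr1, a zinc finger factor of the same wave, was at 6.23, 6.18, 6.25, 6.66 and 6.28 in d30 none arrays, against 7.26, 8.10, 7.26, 8.01 and 7.76 in naive arrays (-1.36 ± 0.32, adjusted p = 0.00638). Cd69, an early activation antigen that also holds cells in tissue, was at 6.92, 6.84, 6.96, 6.98 and 7.69 in d30 none arrays, against 8.59, 8.13, 8.62, 8.64 and 8.06 in naive arrays (-1.33 ± 0.23, adjusted p = 0.000132) and is named after its values were seen. For Nr4a3, Egr1 and Cd69 too, all 5 d30 none arrays lay below the lowest naive one. Zfp36l1, which marks mRNAs for decay, and Dusp4, a phosphatase of MAP kinases, were lower, with log2 fold changes of -1.38 ± 0.23, adjusted p = 8.96e-05 and -1.31 ± 0.26, adjusted p = 0.000957. Egr2, a factor tied to anergy, did not pass, at 6.12 ± 0.32 in d30 none cells, against 6.76 ± 0.27 in naive cells (adjusted p = 0.242).

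Of 31 feedback regulators 2 were higher and 3 lower, or 16.1% called, beside 4.33% of all genes. The higher ones were inhibitors of cytokine signals. Socs3, an inhibitor of JAK and STAT signals, was at 6.84, 6.13, 6.04, 6.82 and 6.52 in d30 none arrays, against 5.72, 4.48, 3.98, 4.37 and 4.13 in naive arrays (1.93 ± 0.28, adjusted p = 8.4e-06), and Cish, a related inhibitor induced by IL-2 and IL-7, was at 5.84, 5.39, 5.04, 5.38 and 6.60 in d30 none arrays, against 4.50, 4.02, 4.82, 4.38 and 4.03 in naive arrays (1.30 ± 0.34, adjusted p = 0.0171), a call lost without d30 none array 5 (adjusted p = 0.0797). In the receptor complex and proximal signalling list 4 of 36 were higher and 1, Dgkz, was lower (13.9% called). Dgkz, a kinase that removes the second messenger diacylglycerol, was at 7.61 ± 0.18 in d30 none cells, against 8.55 ± 0.39 in naive cells (-0.94 ± 0.18, adjusted p = 0.000666). Cblb, a ubiquitin ligase that limits receptor signals, was higher by 0.51 ± 0.13, adjusted p = 0.0103, with overlapping arrays, but did not pass without naive arrays 3 and 4 (0.37, adjusted p = 0.171), when 0 of the 36 were higher. The anergy-associated list, which holds both Nrp1 and Dgkz, had 5 higher and 5 lower of 19. Without naive array 3 there were 3 higher members, and without d30 none array 1 or 5 or naive array 2 there were 3 lower ones. Without naive arrays 3 and 4 there were 2 higher and 4 lower.

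Transcripts of mitosis were lower in d30 none cells. Of 64 measured genes of mitosis 25 were lower and 0 higher by limma, with a median of -0.43, and of 49 S phase genes 4 were lower and 0 higher, with a median of -0.30. The called shares were 39.1% for mitosis and 8.16% for S phase, beside 4.33% of all genes. None of the 4 S phase calls held in all 10 fits that leave out an array, and 2 were left without d30 none array 1 or without naive array 2, 3 or 5. At an unadjusted p under 0.05, 36 and 18 were lower and 0 and 1 higher. Ccna2, which encodes cyclin A2, was at 3.04, 3.10, 3.22, 3.0 and 2.73 in d30 none arrays, against 4.22, 4.08, 4.17, 5.39 and 5.09 in naive arrays (-1.57 ± 0.25, adjusted p = 4.89e-05). Ube2c, the ubiquitin-conjugating enzyme of the anaphase-promoting complex, was at 2.91, 3.71, 3.38, 2.97 and 3.64 in d30 none arrays, against 4.55, 4.38, 6.05, 4.65 and 5.05 in naive arrays (-1.61 ± 0.27, adjusted p = 0.000119). Nusap1, a spindle protein, was at 3.31, 3.07, 3.64, 2.65 and 3.61 in d30 none arrays, against 3.63, 4.19, 4.78, 5.26 and 5.76 in naive arrays (-1.47 ± 0.27, adjusted p = 0.000294), with 1 d30 none array just above the lowest naive one. For these genes d30 none arrays were close to the bottom of the scale, and naive arrays 3 to 5 tended to be the highest. The naive arrays 3 and 4, which carry the most B cell and myeloid transcripts, also held the 2 highest Mki67 values, 5.72 and 6.23. The other 3 naive arrays were at 4.20 to 5.01. Without naive arrays 3 and 4, 14 mitosis genes were lower and 0 higher, and 1 S phase gene was lower. The part of the other cell types in the difference was not tested.

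Promoters of mitosis genes share known elements, the CCAAT box bound by NF-Y and the cell cycle homology region TTTGAA bound by the DREAM complex. As examples of lower genes whose windows hold both elements, RefSeq promoter windows (GRCm38.p6, 250 bases before to 50 after the start) are printed for Mki67, Top2a and Ube2c, and for Nkg7 as a higher Th1 gene. Sequences run 5′ to 3′ on the strand of the gene, and capitals mark CCAAT or TTTGAA on either strand (for Nkg7, the T-box element AGGTGTGA only).
Mki67 (chr7:135716330-135716629, minus strand): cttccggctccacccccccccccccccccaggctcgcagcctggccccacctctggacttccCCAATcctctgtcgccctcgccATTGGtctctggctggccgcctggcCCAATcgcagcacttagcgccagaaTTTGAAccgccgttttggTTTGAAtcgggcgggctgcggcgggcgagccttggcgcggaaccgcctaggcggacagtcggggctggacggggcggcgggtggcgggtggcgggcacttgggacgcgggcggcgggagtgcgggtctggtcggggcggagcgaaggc
Top2a (chr11:99024140-99024439, minus strand): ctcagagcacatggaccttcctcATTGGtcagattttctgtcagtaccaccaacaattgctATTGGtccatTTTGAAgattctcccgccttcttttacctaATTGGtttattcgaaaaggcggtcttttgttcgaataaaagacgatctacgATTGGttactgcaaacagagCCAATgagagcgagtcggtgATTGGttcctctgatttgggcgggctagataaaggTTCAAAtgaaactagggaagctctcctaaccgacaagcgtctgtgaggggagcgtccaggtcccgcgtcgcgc
Ube2c (chr2:164769679-164769978, plus strand): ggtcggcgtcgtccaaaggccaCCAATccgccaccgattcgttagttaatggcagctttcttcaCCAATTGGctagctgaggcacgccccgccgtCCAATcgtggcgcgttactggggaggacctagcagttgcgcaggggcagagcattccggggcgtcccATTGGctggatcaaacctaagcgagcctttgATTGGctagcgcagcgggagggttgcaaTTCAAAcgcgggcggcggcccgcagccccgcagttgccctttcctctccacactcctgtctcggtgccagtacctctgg
Nkg7 (chr7:43436888-43437187, plus strand): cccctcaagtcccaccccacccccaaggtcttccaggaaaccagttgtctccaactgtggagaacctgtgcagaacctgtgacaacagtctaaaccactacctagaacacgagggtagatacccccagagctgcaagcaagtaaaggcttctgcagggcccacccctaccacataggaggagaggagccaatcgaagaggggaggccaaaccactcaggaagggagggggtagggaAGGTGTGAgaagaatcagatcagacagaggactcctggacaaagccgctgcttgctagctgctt
The Mki67 window held 3 CCAAT and 2 TTTGAA matches, that of Top2a 6 and 2, and that of Ube2c 6 and 1, the first base of this last match lying 29 bases before the start of the gene. Not all lower genes held both: the window of Cks2, a partner of cyclin-dependent kinases, held 4 CCAAT and 0 TTTGAA matches. Cks2 was at 4.45, 3.05, 4.05, 4.50 and 3.58 in d30 none arrays, against 6.19, 5.28, 7.28, 8.0 and 5.84 in naive arrays (-2.59 ± 0.65, adjusted p = 0.0117), and its call was lost without naive array 4 and without naive arrays 3 and 4 (-1.84, adjusted p = 0.19). The Nkg7 window held 1 CCAAT, not in capitals, and 0 TTTGAA matches. The letters TTTGAA were found in the windows of 36 of 48 measured mitosis genes (75%) and of 14 of the 19 called ones (73.7%), against 16.4% of all 14276 genes with 1 window. For CCAAT the shares were 68.8% and 73.7%, against 38.9% of all. Measured and called genes of the list thus held both motifs at like shares. Among all 310 lower genes with 1 window TTTGAA was found in 16.8%, close to the share of all genes. The T-box letters AGGTGTGA were in 1 of 18 measured Th1 windows, that of Nkg7, and in 1.22% of all windows.

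Histone genes and small structural RNAs were looked at after their values were seen. Of 34 histone genes 10 were lower and 0 higher by limma (13 and 1 at an unadjusted p under 0.05), and 5 of the 10 passed without naive arrays 3 and 4. H1f5, a linker histone, was at 2.61, 2.43, 2.49, 3.0 and 2.86 in d30 none arrays, against 7.02, 7.0, 8.49, 7.47 and 6.99 in naive arrays (-4.72 ± 0.52, adjusted p = 1.17e-08), the lowest fold change of all called genes. H2ac15, a core histone, was at 2.97, 3.37, 3.03, 4.14 and 4.40 in d30 none arrays, against 5.91, 7.24, 7.38, 7.75 and 6.93 in naive arrays (-3.46 ± 0.56, adjusted p = 5.29e-05), and H1f2 fell by 1.88 on the log2 scale (adjusted p = 0.00137). Replication-dependent histone mRNAs are made in S phase and lack a poly(A) tail in dividing cells. Of 83 small nucleolar and other structural RNA genes 10 were lower, 3 higher and 70 not called, with a median of -0.24. At an unadjusted p under 0.05, 23 were lower and 10 higher. Among all genes tested 4.33% were called. Without naive arrays 3 and 4, 4 of these RNA genes were lower. Rpph1, the RNA of RNase P, was at 8.70, 9.09, 8.56, 8.66 and 8.49 in d30 none arrays, against 11.28, 11.31, 11.61, 11.59 and 10.68 in naive arrays (-2.59 ± 0.19, adjusted p = 1.37e-13), and Terc, the RNA of telomerase, was at 4.28, 4.43, 4.93, 5.02 and 4.12 in d30 none arrays, against 6.59, 7.14, 8.93, 8.82 and 6.22 in naive arrays (-2.98 ± 0.49, adjusted p = 5.87e-05, and -2.09, adjusted p = 0.0132 without naive arrays 3 and 4). Taf1d, which acts in ribosomal RNA transcription, was at 8.40 ± 0.32 in d30 none cells, against 10.64 ± 0.39 in naive cells (-2.24 ± 0.25, adjusted p = 1.79e-08).

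The levels in the other 7 groups single out 2 kinds of difference, naive arrays apart from all others and day 30 arrays apart from all others. They hold 5.2% and 0.416% of the 961 called genes, so most called genes showed neither. For 54 of 22180 genes (0.243%) all 5 naive arrays lay beyond the 38 arrays of every primed group, and 50 of these were called, 24 higher and 26 lower in d30 none cells. This pattern and those below already require that naive and d30 none arrays do not overlap. That most such genes were called is therefore no separate support. The 26 include Arhgap20, at means of 2.80 to 3.24 in the primed groups and 7.10 in naive cells, as well as Itm2a, Tmem108, Gpr83, Igfbp4, Trat1, Ifngr2, Ccr8, Cd69 and Il6st. Among the 24 were Cxcr3, at 8.40 to 9.53 in the primed groups and 5.03 in naive cells, with Itgb1, Nkg7, Maf, Sidt1, Nrp1, Myo1f, Itga4, Tbx21, Ifng, Cst7, Nt5e, Stat4, Il2rb and Casp1. These genes set d30 none cells apart from naive cells to the same side as cells still under antigen. Sox4 and Tnfsf4 were different, since most arrays of cells kept on 100 µg/ml did not share the low level. Sox4 had means of 3.48 in d30 none, 6.10 in d30 int, 6.91 in d10 int and 7.95 in naive cells, and Tnfsf4 2.97, 6.62, 7.70 and 6.11. The d30 int arrays were spread for Sox4, at 5.19, 7.69, 7.95, 5.80 and 3.87. For Tnfsf4 the d30 low arrays were spread too, at 3.53, 6.10, 3.14, 6.67 and 5.10.

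Other differences ran with the day of the sort. For 4 genes (0.018% of those tested) all 20 arrays of day 30 lay beyond the 23 arrays of day 10 and naive cells, and all 4 were called: Rpph1 and Cd209a were lower on day 30, and Rpl13, a ribosomal protein, and H2-Ke6, a dehydrogenase gene of the MHC region, higher. Cd209a and H2-Ke6 are named after their values were seen. Group means of Rpph1 were 8.46 to 9.02 on day 30, against 11.32 in d10 none cells, 11.38 in d10 high cells and 11.29 in naive cells. Cd209a, a lectin of dendritic cells, was at 4.32 to 4.63 on day 30, against 5.60 to 5.97 on day 10 and 6.05 in naive cells. H4c12 had 8.18 to 8.33 on day 30, against 9.38 to 9.99 on day 10 and 10.0 in naive cells, and Terc 4.56 to 5.28 on day 30, against 6.51 to 7.46 on day 10 and 7.54 in naive cells. Usp50, named for a family of deubiquitinases, had group means of 7.88 to 8.20 on day 30, against 6.89 to 7.68 on day 10 and 7.13 in naive cells. Fbxw5 (F-box protein of ubiquitin ligases) had group means of 8.97 to 9.36 on day 30, against 7.67 to 8.24 on day 10 and 7.62 in naive cells. For H4c12, Terc, Usp50 and Fbxw5 single arrays overlapped. Terc was at 6.76 in d30 int array 1, against 6.22 in naive array 5. Usp50 was at 7.53 in d30 int array 4, against 8.19 in d10 high array 4. The labels call the day 30 sorts a second series, so for these genes memory cannot be told apart from time or from the series of sorts. Only 3 genes (0.0135%) had the 5 d30 none arrays beyond all other 38, and 2 of these were called. Kcnma1, a calcium-activated potassium channel, was at 10.69, 9.89, 10.03, 10.48 and 10.86 in d30 none arrays, against 11.47, 12.12, 11.38, 11.26 and 11.69 in naive arrays (-1.19 ± 0.20, adjusted p = 8.02e-05), and at group means of 12.15 to 12.55 in the other primed groups. The other, Itgal, was at 8.33 in d30 none cells and at 8.77 or more in every other group.

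**Figure D5:**
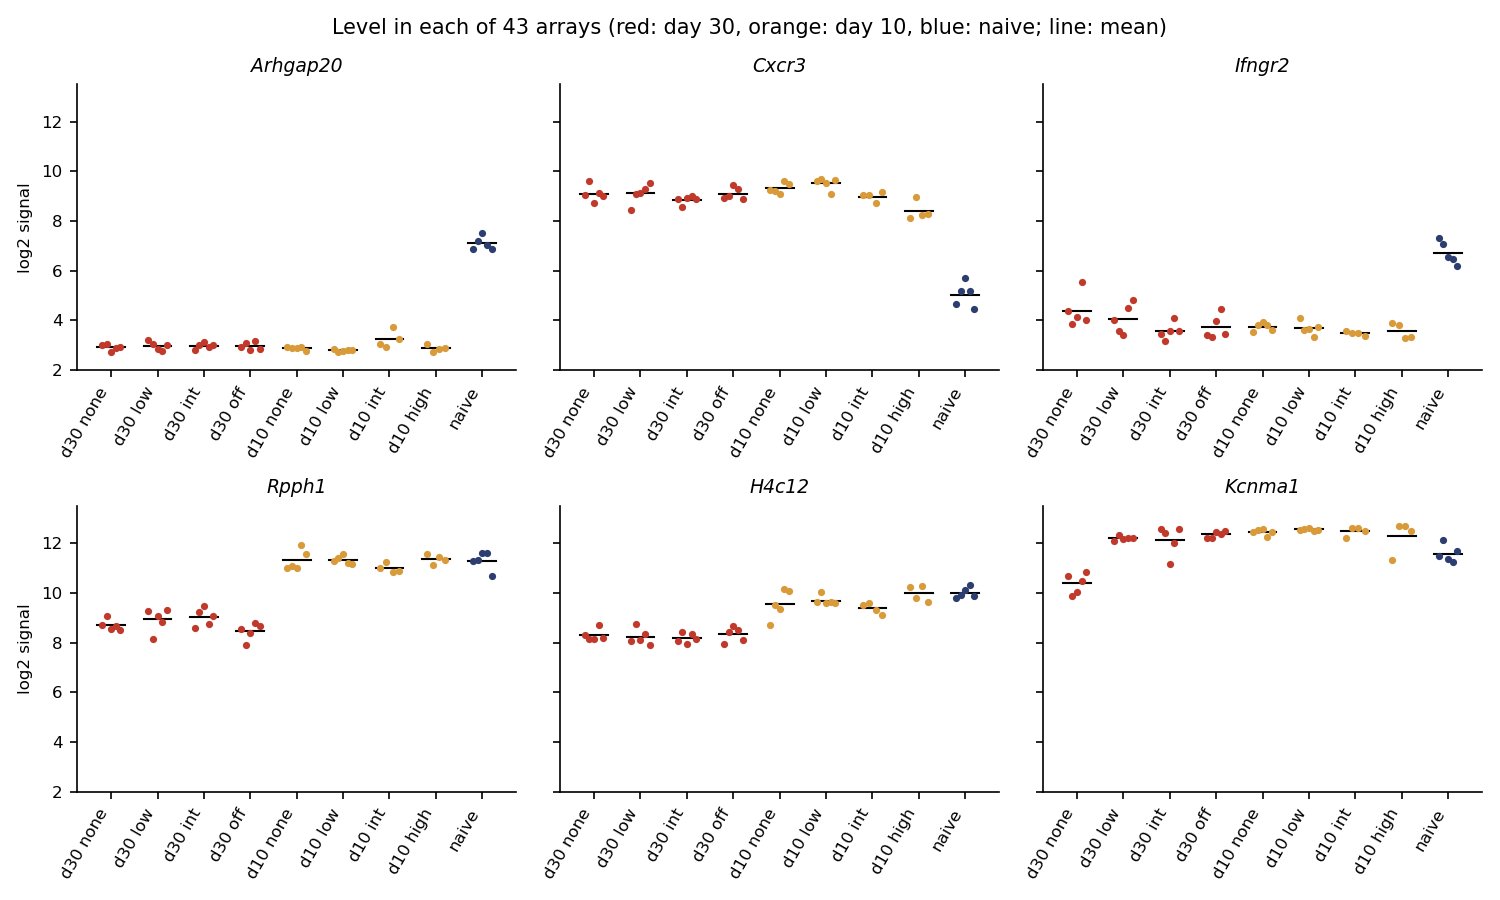
Log2 signal of 6 genes in all 43 arrays by group, with d30 none first and naive last. Arhgap20, Cxcr3 and Ifngr2 set naive arrays apart from all primed arrays, and Kcnma1 is lowest in d30 none. Rpph1 and H4c12 have lower means in the 4 day 30 groups than in day 10 and naive cells, with single H4c12 arrays overlapping.

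Interferon-stimulated genes had 8 of 49 members higher and 1 lower, with a median of 0.31, and 40 of the 49 had a fold change above 0. The called share was 18.4%, beside 4.33% of all genes. Iigp1, an immunity-related GTPase, was at 8.26, 8.17, 8.34, 8.03 and 8.64 in d30 none arrays, against 6.13, 6.24, 7.35, 7.51 and 6.58 in naive arrays (1.53 ± 0.23, adjusted p = 1.08e-05). Bst2, tetherin, which holds virions at the membrane, was at 9.04, 9.17, 8.56, 8.29 and 8.24 in d30 none arrays, against 6.82, 7.04, 7.97, 7.87 and 6.72 in naive arrays (1.38 ± 0.27, adjusted p = 0.000889), and Mx1, an antiviral GTPase, was at 4.27 ± 0.19 in d30 none cells, against 3.39 ± 0.16 in naive cells (0.88 ± 0.20, adjusted p = 0.0044). In each of them the naive arrays were below every d30 none array. Slfn8, a Schlafen family gene, was the lower one, with overlapping arrays (-1.27 ± 0.31, adjusted p = 0.0101), and its call was lost without naive array 3 (adjusted p = 0.0561). Outside the list, the TRIM family gene Trim30c was at 4.38, 6.18, 4.71, 5.60 and 5.15 in d30 none arrays, against 2.94, 2.57, 2.66, 3.78 and 2.96 in naive arrays (2.22 ± 0.32, adjusted p = 4.58e-06). Without naive arrays 3 and 4, 5 of the list were higher and 1 lower.

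Cell death genes included the inflammatory caspases. Casp1, which processes IL-1 beta and IL-18, was at 7.67, 8.41, 8.06, 7.78 and 8.11 in d30 none arrays, against 5.47, 4.53, 5.29, 6.71 and 5.62 in naive arrays (2.48 ± 0.21, adjusted p = 1.13e-11), and Casp4, which senses lipopolysaccharide, was at 7.68, 7.48, 7.92, 7.86 and 7.62 in d30 none arrays, against 5.44, 5.01, 6.51, 7.31 and 5.99 in naive arrays (1.66 ± 0.25, adjusted p = 1.77e-05). Bcl2l11, the pro-death protein BIM, was lower at 4.81, 5.23, 4.92, 4.52 and 5.20 in d30 none arrays, against 5.58, 6.58, 5.87, 5.67 and 5.86 in naive arrays (-0.98 ± 0.22, adjusted p = 0.00512), whereas Bcl2 itself was not called (-0.47, adjusted p = 0.211). Of the 29 members of the death list, 2 were higher and 2 lower, the fourth being Xiap, a caspase inhibitor (-0.93, adjusted p = 0.0045, overlapping arrays). In all 13.8% of this list was called, beside 4.33% of all genes. Gimap7, a GTPase of lymphocyte survival, was at 8.39 ± 0.20 in d30 none cells, against 6.97 ± 0.58 in naive cells (1.42 ± 0.17, adjusted p = 5.71e-08), the only one of 8 GIMAP genes called.

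Metabolic and housekeeping lists differed in the share of their genes that was called, from 6.67% for the respiratory chain, 7.94% for ribosomal proteins and 8.7% for the proteasome to 17.9% for glycolysis and nutrient uptake, beside 4.33% of all genes. The last share includes dim genes, since only 8411 of the 22180 genes had a mean log2 signal above 4. It is thus no like-for-like measure for lists of brighter genes. Of 75 respiratory chain genes 4 were higher and 1 lower, of 63 cytosolic ribosomal protein genes 2 higher and 3 lower, and of 46 proteasome genes 2 and 2. None of these calls but those of Rpl13 and Rpl19, both higher, held in all 10 fits that leave out an array. Glycolysis and nutrient uptake had 1 of 28 higher, Pfkp, a phosphofructokinase (0.98 ± 0.15, adjusted p = 2.43e-05), and 4 lower, none of which held in all 10. Acss1, a mitochondrial enzyme that turns acetate into acetyl-CoA, was at 8.10, 8.11, 8.64, 7.96 and 7.96 in d30 none arrays, against 6.60, 6.67, 5.99, 5.90 and 4.69 in naive arrays (2.18 ± 0.30, adjusted p = 2.42e-06). Chromatin enzymes of the methylation and deacetylation list had 5 of 33 lower and 0 higher by limma (9 and 2 at an unadjusted p under 0.05), with Kdm6b, a histone demethylase (-1.32 ± 0.27, adjusted p = 0.0017), and Hdac1, a histone deacetylase (-0.99 ± 0.20, adjusted p = 0.00113), among them. Ion channels and purinergic receptors had 4 of 18 higher, among them Trpv2, a cation channel (1.14, adjusted p = 0.00654, overlapping arrays), and P2rx7, the ATP receptor (0.99, adjusted p = 0.00992). Of 17 circadian clock genes 0 were called by limma, and 6 had an unadjusted p under 0.05.

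Markers of other cell types were lower in d30 none cells or not called. Of 29 myeloid markers 7 were lower, of 14 B cell markers 4 and of 9 MHC class II genes 4, and 0 were higher by limma, with 1 at an unadjusted p under 0.05. These are 24.1%, 28.6% and 44.4% of the lists, beside 4.33% of all genes called. Without naive arrays 3 and 4, 2 myeloid, 0 B cell and 2 MHC class II genes were lower by limma. That fit kept naive array 5, with a summed myeloid signal of 9.53. Naive array 3 by itself brought the counts to 4, 1 and 2 when left out, naive array 4 the MHC class II count to 2, and d30 none array 1, 4 or 5 the B cell count to 2. S100a9, a neutrophil protein, was at 3.39, 3.15, 3.81, 3.49 and 4.02 in d30 none arrays, against 5.58, 5.05, 10.12, 9.53 and 7.44 in naive arrays (-3.97 ± 0.67, adjusted p = 0.000101, and -2.45, adjusted p = 0.0225 without naive arrays 3 and 4). Lyz2, lysozyme of macrophages and neutrophils, was at 3.12, 2.53, 2.79, 2.59 and 3.16 in d30 none arrays, against 2.61, 2.65, 8.34, 7.39 and 3.47 in naive arrays (-2.05 ± 0.58, adjusted p = 0.0309), and -0.07, adjusted p = 0.942 without naive arrays 3 and 4. The B cell receptor chain Cd79b was at 3.37, 3.46, 3.56, 3.04 and 4.10 in d30 none arrays, against 3.31, 3.37, 8.69, 6.66 and 5.35 in naive arrays (-1.97 ± 0.48, adjusted p = 0.00883, and -0.50, adjusted p = 0.417 without those arrays), and its partner Cd79a moved alike (-1.84 ± 0.36, adjusted p = 0.000806, and -0.76, adjusted p = 0.0712). H2-Ab1, an MHC class II chain, was at 3.45, 3.15, 3.53, 3.12 and 3.40 in d30 none arrays, against 4.20, 3.74, 6.93, 5.63 and 5.0 in naive arrays (-1.77 ± 0.28, adjusted p = 2.5e-05), and passed without them (-0.98, adjusted p = 0.000774), as did H2-Oa (-1.29, adjusted p = 0.028). Tyrobp, an adaptor of myeloid and NK receptors whose arrays overlapped, did not (-1.09, adjusted p = 0.128). Erythroid, stromal and CD8, NK or gamma-delta markers had 0 calls by limma, and 3 of these 30 had an unadjusted p under 0.05. Of the defining genes of these other cells, Cd79b (up to 8.69), Lyz2 (up to 8.34), Cd79a (up to 7.68), Cd8b1 (up to 5.70) and Ms4a1 (up to 5.19) exceeded 4.31, the highest value of any of them in d30 none arrays, in at least 1 naive array. Csf1r, Cd14, Itgax, Pax5, Cd8a and Ncr1 stayed under 4 in all 10 arrays. The part of other cell types in the differences was not tested.

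The d30 none cells were also set beside d10 none cells, which had the same priming and had rested for less time. Of 22180 genes 761 were called (3.43%), 334 higher and 427 lower on day 30, and 154 by at least 2-fold. Both comparisons use the same d30 none arrays. Maf was at 6.62, 7.94, 5.49, 8.42 and 6.36 in d30 none arrays, against 8.62, 9.10, 9.05, 7.95 and 9.35 in d10 none arrays (-1.85 ± 0.46, adjusted p = 0.0175), and only 1 d30 none array reached the day 10 range. This call held in 7 of 10 fits that leave out an array, that of Bach2 in 6 and that of Sidt1 in all 10. Bach2 was at 5.13 ± 0.24 on day 30, against 5.95 ± 0.31 on day 10 (-0.82 ± 0.21, adjusted p = 0.0212), and Sidt1 at 9.22 ± 0.12 on day 30, against 9.98 ± 0.27 on day 10 (-0.75 ± 0.17, adjusted p = 0.00914). The 26 Th1 genes had 0 calls between the days by limma, and 4 were lower at an unadjusted p under 0.05. Cxcr3 was at 9.11 ± 0.32 on day 30, against 9.34 ± 0.21 on day 10 (adjusted p = 0.564), Ly6c2 at 10.64 ± 0.30 on day 30, against 10.67 ± 0.37 on day 10 (adjusted p = 0.981), Itgb1 at 9.62 ± 0.14 on day 30, against 9.64 ± 0.38 on day 10 (adjusted p = 0.963) and Il7r at 10.29 ± 0.12 on day 30, against 10.25 ± 0.33 on day 10 (adjusted p = 0.979), which does not show that they are equal. The 64 mitosis genes had 1 higher and 1 lower. Respiratory chain genes had 13 of 75 higher and 1 lower on day 30, with a median of 0.26 beside 0.02 for all genes, and ribosomal protein genes 10 of 63 higher and 0 lower by limma (20 and 2 at an unadjusted p under 0.05). Klk1b27, a kallikrein, was higher on day 30, at 3.34, 5.52, 6.69, 5.58 and 5.91 in d30 none arrays, against 2.40, 3.30, 2.77, 2.79 and 2.72 in d10 none arrays (2.61 ± 0.47, adjusted p = 0.00114), and Cish at 5.65 ± 0.60 on day 30, against 4.40 ± 0.32 on day 10 (1.25 ± 0.34, adjusted p = 0.0299), a call that held in 4 of 10 such fits. With quantile normalization 60.8% of day calls were higher, against 43.9% as deposited, so the balance of directions between the days depends on the scaling.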

How the data were processed

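RNA of sorted CD4 T cells was measured on 43 single-colour arrays. The log2 signals deposited by the authors, 1.46 to 13.87 in 41345 probe sets, were used as deposited; base 2 was inferred from their range, and how background and normalization were handled was not given in the sources used here. Per the labels' protocols, 0.1 to 30 ng RNA went into whole-transcriptome amplification (Ovation Pico WTA V2) and biotin labelling. Array medians were 3.28 to 3.44, and the number of arrays limits the precision. Amplification and the floor of the scale can compress differences of dim genes.

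Of the probe sets 23521 carried 1 symbol, 1814 several and 16010 none; among probe sets of 1 symbol the brightest, by its mean in the 43 arrays, stood for the gene, giving 22180 genes. Some list members were not analysed here. limma 3.58.1 in R 4.3.3 was fitted to all arrays as 9 group means (lmFit, eBayes with a variance trend), and was tested on simulated data. Adjusted p is Benjamini-Hochberg over all 22180 genes. No 2 arrays were identical. The genes of the text follow a rule: the leading called genes, the largest called members of 43 lists, and fixed genes; 9 further genes were named after their values were seen, and so were the groups of histones and structural RNAs. The members, lists and rule were chosen with earlier results of these data known. Promoter windows come from RefSeq; 14276 genes had 1 window. Alternatives were other scalings, filters, weights, prior variances, probe set rules, a replicate block, and leaving out arrays.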

Additional observations from a re-analysis of the deposited data

Results flagged for a closer look

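In 11 cases 1 of the 5 arrays of a group lay far from the others by Dixon's gap test, among 272 groups of values looked at, where chance gives about 1 in 20 such cases. In d30 none cells these were array 4 for Myb (6.11, low), Egr1 (6.66, high), Rpl13 (12.35, low) and Rpl19 (12.14, low), array 5 for Cd69 (7.69, high), array 2 for Gimap7 (8.04, low) and array 3 for Acss1 (8.64, high). In naive cells they were array 1 for Cd44 (4.29, low), Il2rb (7.43, low) and Socs3 (5.72, high), and array 3 for Foxp3 (6.42, high), the array with the highest myeloid and B cell signal. All of these genes but Cd44 were called, and their calls held in the fits that leave out the array in question.

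The difference from naive cells was not the same on day 30 as on day 10 for 27 genes named here, by limma's test of d30 none minus d10 none. Lower on day 30 (log2 fold change) were S100a8 (-3.12), S100a9 (-2.86), Terc (-2.82), Rpph1 (-2.62), Kcnma1 (-2.06), Maf (-1.85), Cd209a (-1.38), Slfn8 (-1.27), H4c12 (-1.26), Bach2 (-0.82), Zfp36l1 (-0.80), Sidt1 (-0.75), Xiap (-0.72), Top2a (-0.71), Itgal (-0.62), Cd3e (-0.49) and Thy1 (-0.40). Higher on day 30 were Rpl19 (0.15), Rpl13 (0.27), H2-Ke6 (0.74), Pglyrp1 (0.89), Acss1 (1.01), Cish (1.25), Fbxw5 (1.30), Usp50 (1.31), Trim30c (1.45) and Klk1b27 (2.61). For 14 of the 27 the call held in all 10 fits that leave out an array. It held in 9 fits for Cd3e, 7 for Maf and S100a8, 6 for Bach2, Slfn8 and Thy1, 5 for Rpl19, 4 for Cish and Top2a, 3 for Xiap and Pglyrp1, 2 for Zfp36l1 and 0 for Acss1. The summed myeloid signal was 8.0 to 8.44 in d30 none arrays, against 8.48 to 9.80 in d10 none arrays, and S100a8 stood at 5.31, 3.60, 8.16, 8.27 and 7.57 in d10 none arrays 1 to 5. The part of myeloid transcripts in these differences was not tested. Day and series of sorts cannot be told apart in these values.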

How the results depend on the processing

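The 961 calls of d30 none against naive became 438 in a fit on the arrays of the 2 groups alone, 349 with a replicate block and 594 without naive arrays 3 and 4, and ran from 768 to 917 on leaving out each replicate. The 761 calls of d30 none against d10 none became 353 with the arrays of the 2 groups alone and 254 with a replicate block. They ran from 366 to 867 on leaving out each replicate. The cause of these changes was not tested. The fits on the 2 groups alone and with a replicate block also use fewer arrays and residual degrees of freedom. The other alternatives (quantile normalization, median centring, array weights, no variance trend, robust prior, a filter on dim genes, the mean of probe sets, leaving out 4 arrays) kept both counts within 1.5 times. The 4 arrays were naive arrays 3 and 4, d10 none array 4 and d10 high array 2, so this setting is not separate from that without naive arrays 3 and 4. In it 14 named genes lost the call. The shares of higher genes were 49.4% and 42.8% under quantile normalization and centring for d30 none against naive, beside 45.7% as deposited. Replicate numbers did not pair the samples: correlations of same-numbered deviations were -0.023 to 0.055 between d30 none and naive and -0.067 to 0.03 between d30 none and d10 none. Of 136 genes named, 125 were called. Of these, 115 kept the call on leaving out each array, and 111 without naive arrays 3 and 4. In the fit on the arrays of the 2 groups alone 12 lost the call, and with a replicate block 18 did. None of the named genes turned direction in a setting in which it was called. Of the mitosis list 22 to 26 members were lower on leaving out each array, and of the Th1 list 10 to 12 were higher.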
